A study of Mus musculus with 360 samples.

Results

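The ephrins and Eph receptors examined here were 10 genes of 24015 in the tables, chosen by name for their place in the literature on the boundary of the coronal suture. They were 5 ephrins, Efna2, Efna4, Efna5, Efnb1 and Efnb2, and 5 receptors, Epha3, Epha4, Ephb2, Ephb3 and Ephb4. All 10 were found in all 8 tables, 1 table for each of 2 plates of 4 tissues. The cells were sorted singly as CD51+;CD200+ skeletal stem/progenitor cells, with Tie2, CD45 and CD105 among the markers gated out, from wild-type CD-1 mice at postnatal day 3. They came from 3 sutures of the skull vault, PF (posterior frontal), SAG (sagittal) and COR (coronal), dissected as whole suture complexes, and from the growth plate of the tibia (GP), and were sequenced by the full-length SMART-seq2 method. After removal of shallow wells, 87 PF, 86 SAG, 74 COR and 78 GP cells remained. The labels name no animal, litter or culture for any cell, so each tissue counted as 1 sample, no test was made between tissues, and the 2 plates of a tissue gave the only spread within it. Each tissue had plates of its own, so that plate and tissue cannot be told apart.

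Eph receptors are receptor tyrosine kinases, and ephrins are their membrane-bound ligands, so the pair signals where cells touch. Ephrin-A proteins sit on a lipid anchor and mostly bind EphA receptors, whereas ephrin-B proteins cross the membrane and mostly bind EphB receptors, with EphA4 binding both classes. Ligand-bearing cells also respond, and the result is often repulsion between cell populations, which keeps tissue borders sharp. In the skull vault such a border lies at the coronal suture, where neural crest-derived frontal bone meets mesoderm-derived parietal bone, and in mice Twist1, Msx2 and the ephrin-A/EphA4 system act there.

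Reads of the ribosomal RNA gene Rn45s were left out of every total. The totals then ran from 3237921 reads on COR plate 1 to 28799387 on COR plate 2. SAG plate 2 stood apart from the other plates. There 86.8% of reads were Rn45s, against 20.2% to 30.96% on the other 7 plates, and its cells had a median of 875 genes with a read, against 2111.5 to 3867. SAG values are therefore given by plate, or with the value of SAG plate 1 beside that of both plates. Cd200 had a read in 147 of 325 cells and Itgav, which encodes CD51, in 128, and the osteoblast list in 311. The endothelial markers Pecam1, Tie1, Flt1 and Emcn had 0 reads in 325 cells, which allows a share of up to 0.923%, while the other 3 genes of that list, Cdh5, Kdr and Egfl7, were read in 4, 5 and 12 cells. Levels are summed reads as counts per 1e6 reads (CPM), and shares are of cells with at least 1 read. Intervals are 95% exact intervals that cover counting error only, since the protocol has no molecular identifiers.

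The promoters of Epha3 and Ephb2 show the sequence context of the EphA and EphB receptors whose levels differed between the most tissue pairs. Both run from 250 bases before to 50 after the start site of the RefSeq gene in build GRCm38.p6, on the minus strand. Epha3 lies at chr16:63864126-63864425 and Ephb2 at chr4:136835963-136836262. The capitals mark a CANNTG motif, the E-box read by basic helix-loop-helix factors such as Twist1, which reads the same on both strands.
Epha3: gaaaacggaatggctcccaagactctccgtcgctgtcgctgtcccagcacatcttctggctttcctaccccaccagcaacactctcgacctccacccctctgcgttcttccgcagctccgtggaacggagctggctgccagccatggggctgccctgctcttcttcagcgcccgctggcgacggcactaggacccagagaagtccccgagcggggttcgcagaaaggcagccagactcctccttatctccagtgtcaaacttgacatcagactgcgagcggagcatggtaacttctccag
Ephb2: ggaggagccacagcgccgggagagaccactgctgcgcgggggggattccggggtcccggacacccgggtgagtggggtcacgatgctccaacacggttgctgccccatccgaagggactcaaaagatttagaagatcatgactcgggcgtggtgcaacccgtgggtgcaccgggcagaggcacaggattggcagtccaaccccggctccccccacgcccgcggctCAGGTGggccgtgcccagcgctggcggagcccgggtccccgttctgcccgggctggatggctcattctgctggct
The Ephb2 window held 1 CANNTG, 25 bases before the start site, and the Epha3 window held 0. Among the 10 promoters, all found in the RefSeq table, 4 held the motif, namely those of Efnb2, Ephb2, Ephb3 and Ephb4. Of 32851 promoters of this length 72.3% did. The form CAGATG, or CATCTG on the other strand, scanned for as the Twist E-box, was in 0 of the 10 and in 17.2% of all. The motif marked in Ephb2 is not of that form. The windows of the member genes had a GC content of 55.7% to 74.7%, above the median of 52.7% over all promoters.

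Efna5, which encodes ephrin-A5, was the most widely read member over all cells. Over both SAG plates Efnb1 was read in more cells, but on SAG plate 1 alone in fewer, 8 of 30 against 15 of 30. Efna5 lies at chr17:62953533-63230666 on the minus strand (mm9, GENCODE vM1). Reads were found in 57 of 74 COR cells (77%, 65.8% to 86%), 52 of 87 PF cells (59.8%, 48.7% to 70.1%), 35 of 78 GP cells (44.9%, 33.6% to 56.6%) and 19 of 86 SAG cells (22.1%, 13.9% to 32.3%), with 15 of 30 (50%, 31.3% to 68.7%) on SAG plate 1. The COR and GP intervals did not overlap, while PF overlapped both. The summed level was 300 and 362 CPM on COR plates 1 and 2, 314 and 308 on the PF plates, 190 and 209 on the GP plates, and 223 and 11.9 on the SAG plates. Leaving out SAG plate 2, the lowest COR or PF plate was above the highest GP or SAG plate. No single cell carried more than 20.3% of the Efna5 reads of a tissue.

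Efna2, which encodes ephrin-A2, a ligand of EphA4 at the coronal boundary, was read in 24 of 74 COR cells (32.4%), 19 of 87 PF cells (21.8%), 13 of 78 GP cells (16.7%) and 5 of 86 SAG cells (5.81%), all 5 among the 30 of plate 1. Its level, however, was higher in PF than in COR, with 31.8 and 55.4 CPM on the PF plates against 22.5 and 31.4 on the COR plates. The GP plates had 18.4 and 20.2 CPM, and the SAG plates 17.3 and 0. COR thus had more cells with a read and PF more reads per cell with one, with a median of 171 CPM in the PF cells that had a read and 78.1 in the COR cells.

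Efna4, which encodes ephrin-A4 and whose human counterpart is mutated in some patients with coronal synostosis, was seldom read. A read was found in 6 PF, 4 COR and 6 GP cells, and in 1 SAG cell, on plate 1. The levels were 1.52 and 14.6 CPM on the PF plates, 1.85 and 6.28 on the COR plates, 7.49 and 3.65 on the GP plates, and 0.291 and 0 on the SAG plates. The PF plates spanned the values of COR and GP, and SAG had 2 reads in all. The ratio of PF to SAG was 103, with a counting interval of 28.4 to 857 set by those 2 reads. The interval treats reads as independent, whereas the 364 PF reads came from 6 cells, 1 of which held 39.3%. Counted by cells, the share intervals of PF (2.57% to 14.4%) and SAG (0.0294% to 6.31%) overlapped. Exons of Efna4 share 168 bases with an antisense lincRNA, 4731419I09Rik, and since the strand setting of the counting is not known, reads of both cannot be told apart there.

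Efnb1, the X-linked gene of ephrin-B1, whose loss causes craniofrontonasal syndrome with coronal synostosis in people, was read in 34 of 74 COR cells (45.9%), 31 of 87 PF cells (35.6%), 30 of 86 SAG cells (34.9%) and 22 of 78 GP cells (28.2%), and the 4 intervals overlapped. On SAG plate 1 it was read in 8 of 30 cells. The levels were 34.3 and 25.9 CPM on the COR plates, 63.9 and 34.1 on the PF plates, 3.85 and 29.5 on the GP plates, and 40.7 and 346 on the SAG plates. The high SAG level came from plate 2 alone, where 22 of 56 cells had a read. On that plate 98.3% of all genes were read in fewer cells than Efnb1, whereas on the other plates the figure ran from 54.7% to 93.6%. The typical gene also took a larger part of a cell's reads there. Over genes read in at least 4 cells, the median CPM in cells with a read was 526 on SAG plate 2 and 92.98 to 156 on the other plates. The part of plate quality in the Efnb1 level was not tested.

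Efnb2, which encodes ephrin-B2, a ligand of EphB4 in vessels and between osteoclasts and osteoblasts, was read in 14 of 74 COR cells (18.9%), 11 of 78 GP cells (14.1%), 8 of 87 PF cells (9.20%) and 6 of 86 SAG cells (6.98%), all 6 among the 30 of plate 1. Its level was 16.1 and 13.4 CPM on the COR plates, 4.86 and 10.03 on the GP plates, 0.338 and 11.4 on the PF plates, and 10.2 and 0 on the SAG plates. Both COR plates were above all plates of the other tissues, but COR plate 2 only by a little over PF plate 2. On COR plate 1 the level came from 3 of 16 cells, and on PF plate 2 a single cell held 43.4% of the reads. The share intervals of COR (10.7% to 29.7%) and PF (4.05% to 17.3%) overlapped. The 3 other tissues overlapped one another. In their bulk RNA-seq, of many cells together, the authors list an ephrin-B gene, printed as Efnb, as lowered only in PF. Their RT-PCR primers are for Efnb2.

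**Figure D1:**
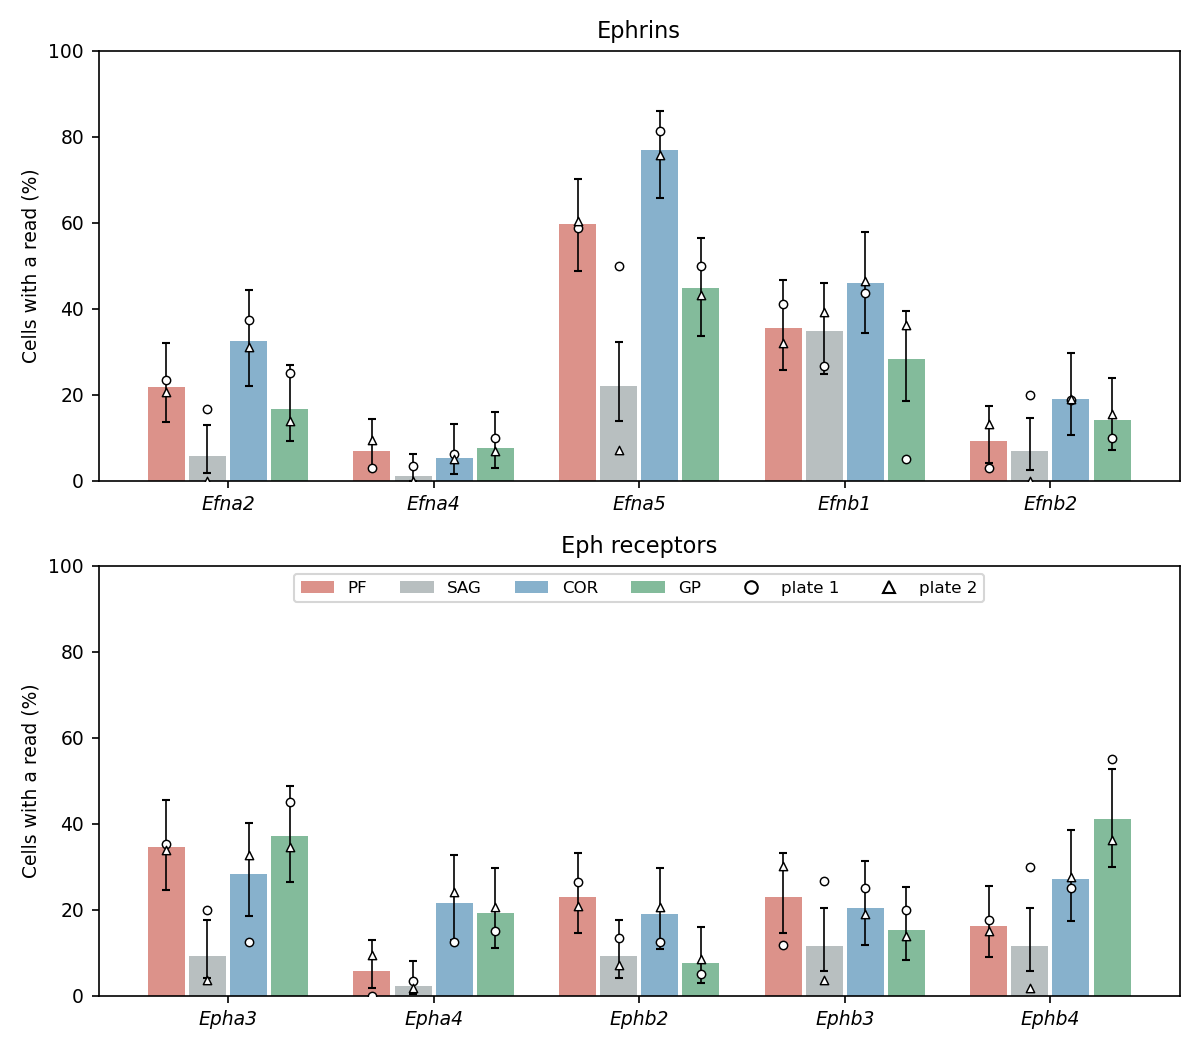
Share of cells with at least 1 read of each ephrin (top) and each Eph receptor (bottom), in percent, with bars for the tissue, error bars for the exact 95% interval, open circles for plate 1 and open triangles for plate 2. Efna5 in COR reaches 77%, and most SAG triangles lie far below the SAG circles, with Efnb1 the exception among the ephrins.

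Epha3, which encodes a receptor of ephrin-A5, was the receptor with the highest level per kilobase of exon over all 325 cells. It lies at chr16:63543364-63863984 on the minus strand (mm9). It was read in 29 of 78 GP cells (37.2%, 26.5% to 48.9%) and in 30 of 87 PF cells (34.5%, 24.6% to 45.4%). In COR 21 of 74 cells had a read (28.4%, 18.5% to 40.1%), and in SAG 8 of 86 (9.30%, 4.10% to 17.5%), with 6 of 30 on plate 1. The levels were 207 and 144 CPM on the GP plates, 139 and 133 on the PF plates, 3.40 and 51.6 on the COR plates, and 30.6 and 11.6 on the SAG plates. All 4 GP and PF plates were above all 4 COR and SAG plates, and COR and SAG overlapped. Cells with a read also held more of it in PF and GP, where the median in such cells was 365 and 315 CPM, than in COR, where it was 91.99. The largest part of the tissue's reads from 1 cell was 10.6% for PF, 17.4% for COR and 17.2% for GP. It was 35.2% for SAG, where 1 cell held 50.5% of those of plate 1 and 1 cell 96.7% of those of plate 2.

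Epha4 encodes the receptor that binds ephrins of both classes and whose loss in mice leads to coronal synostosis. It was read in 16 of 74 COR cells (21.6%) and 15 of 78 GP cells (19.2%), but in 5 of 87 PF cells (5.75%) and 2 of 86 SAG cells (2.33%), with 1 of 30 on plate 1. The COR interval began at 12.9% and the PF interval ended at 12.9%, so that the 2 shares lay at the edge of counting error. The levels were 9.88 and 33.6 CPM on the COR plates, 42.5 and 57.97 on the GP plates, 0 and 31.99 on the PF plates, and 6.11 and 2.42 on the SAG plates. A single PF cell gave 71.4% of the PF reads, and the level in PF rests on it. The 0 of 34 cells on PF plate 1 allows a share of up to 8.82%.

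Ephb2, which encodes a receptor of ephrin-B1, was read in 20 of 87 PF cells (22.99%), 14 of 74 COR cells (18.9%), 8 of 86 SAG cells (9.30%, with 4 of 30 on plate 1) and 6 of 78 GP cells (7.69%). The levels were 16.6 and 13.6 CPM on the PF plates, 3.71 and 7.26 on the COR plates, 0.810 and 4.72 on the GP plates, and 9.02 and 75.5 on the SAG plates. Both PF plates were above the COR and GP plates. The high value of SAG plate 2 came from 4 of 56 cells, and 1 of them held 57.1% of all SAG reads of the gene.

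Ephb3, which acts beside Ephb2 in the closure of the palate, was read in 20 PF (22.99%), 15 COR (20.3%), 12 GP (15.4%) and 10 SAG cells (11.6%), 8 of them among the 30 of SAG plate 1. Its plates spread widely, with 19.6 and 80.6 CPM in PF, 32.7 and 26.5 in COR, 61.9 and 16.1 in GP, and 40.01 and 28.8 in SAG. The plates of PF spanned those of the other 3 tissues but for GP plate 2, so no order of tissues can be read from them.

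Ephb4, the receptor of ephrin-B2, was read in 32 of 78 GP cells (41.03%, 30.01% to 52.7%) and 20 of 74 COR cells (27.03%, 17.4% to 38.6%). It was read less often in PF, in 14 of 87 cells (16.1%, 9.09% to 25.5%), and SAG, in 10 of 86 (11.6%, 5.72% to 20.3%). The GP interval lay above those of PF and of both SAG plates together. On SAG plate 1, however, 9 of 30 cells had a read (14.7% to 49.4%), and that interval overlapped the one of GP. The levels were 102 and 54.9 CPM on the GP plates, 44.8 and 32.1 on the COR plates, 69.99 and 20.5 on the PF plates, and 37.5 and 11.03 on the SAG plates. Both GP plates were above those of COR and SAG, while PF plate 1, where a single cell held 72.5% of the reads, lay between the GP plates. Exons of Ephb4 share 33 bases with the antisense gene Zan.

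**Figure D2:**
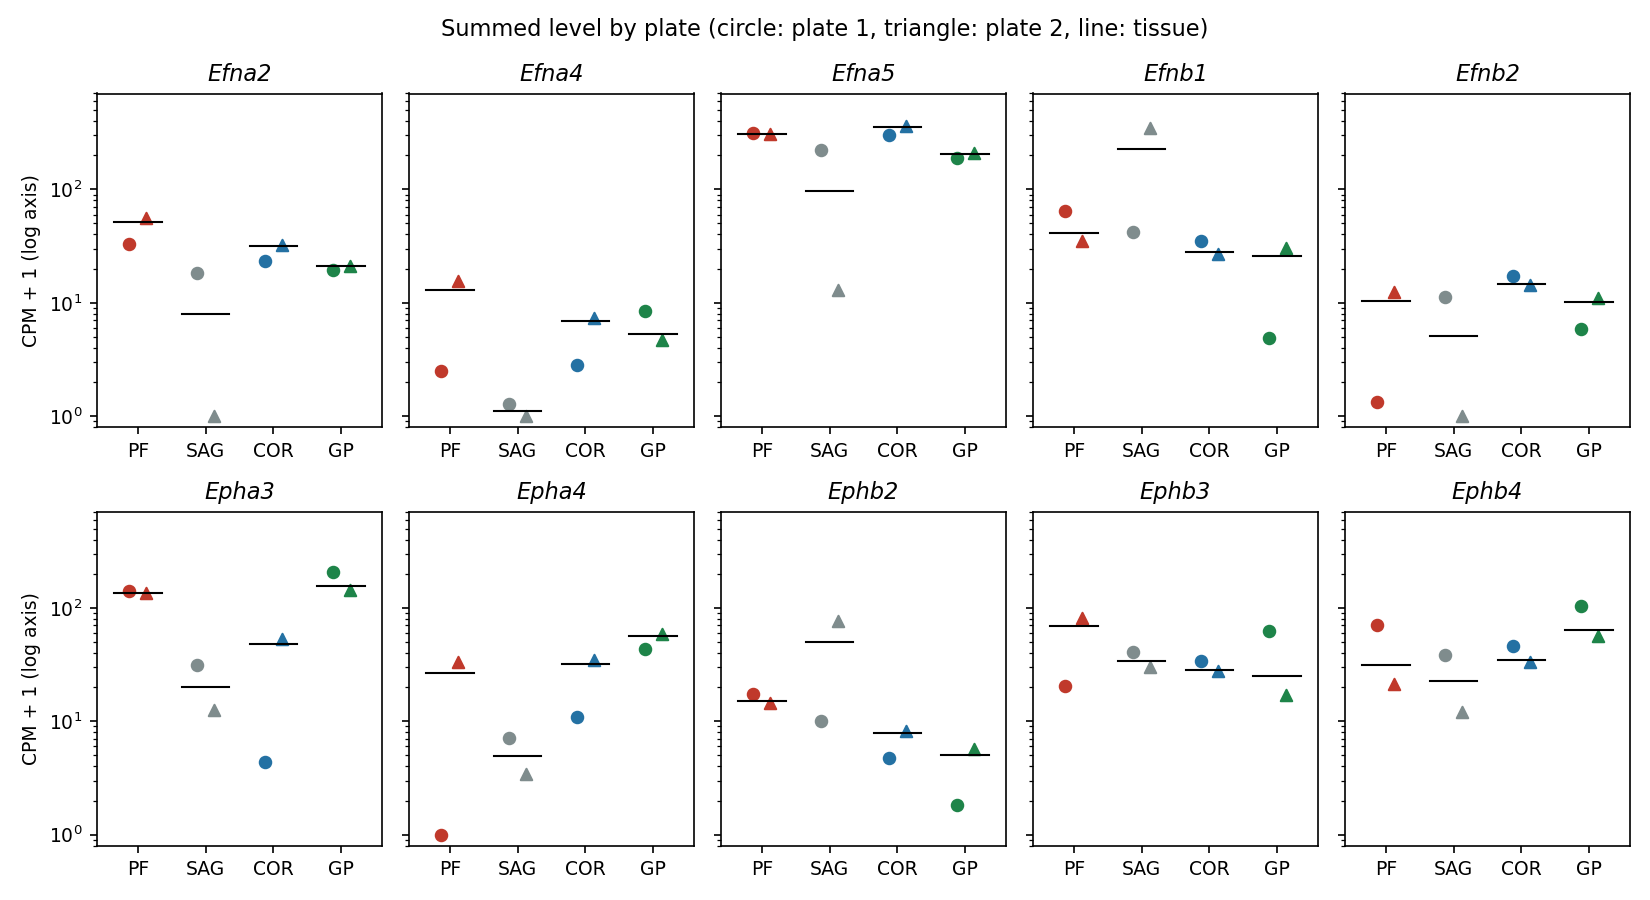
Summed level of each member by tissue, as CPM + 1 on a log axis, with a circle for plate 1, a triangle for plate 2 and a line for the tissue. The PF and GP points of Epha3 lie above its COR and SAG points, the SAG triangle of Efna5 is at 11.9 CPM, and the SAG triangle of Efnb1 is at 346 CPM.

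Every cell was thinned to 100000 reads other than Rn45s, with 17 PF, 6 SAG, 3 COR and 11 GP cells too shallow for it. This changed most shares little. Efnb1 in COR, however, fell from 45.9% to 36.6% of cells, close to 34.3% in PF and 27 of 80 cells in SAG. On SAG plate 1 it was read in 5 of 25. Efna5 on PF plate 1 rose from 58.8% to 77.3%, with 12 of its 34 cells left out. Efna5 was then read in 77.5% of COR, 67.1% of PF, 44.8% of GP and 16 of 80 SAG cells, with 12 of 25 on SAG plate 1. Epha4 was read in 22.4% of GP, 19.7% of COR, 4.29% of PF and 2 of 80 SAG cells, with 1 of 25 on plate 1. Ephb4 was read in 43.3% of GP, 26.8% of COR, 15.7% of PF and 8 of 80 SAG cells, with 7 of 25 on plate 1. With both SAG plates the tissues kept their order for Efna5 and Ephb4, while COR and GP changed places for Epha4. SAG plate 1 alone lay between PF and GP for Efna5 and between GP and COR for Ephb4.

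Compared per kilobase of exon over all 325 cells, Efna5 had the highest level at 64.9 CPM per kb. Efnb1 followed at 17.8, Epha3 at 16.8 and Efna2 at 13.9 CPM per kb, and Ephb2 had the lowest level at 1.18. Leaving out SAG plate 2 put Efnb1 at 9.07 CPM per kb, below Epha3 at 18.4 and Efna2 at 15.4. Epha3 stood second among the members in GP with 27.3 CPM per kb and was below Efna2 in COR, at 8.26 against 14.3. Summed per kilobase, the 5 ephrins outweighed the 5 receptors 4.63-fold in COR, with 5.74 and 4.54 on its plates, and 2.62-fold in PF, with 2.55 and 2.64. In GP the ratio was 1.34, with 0.832 and 1.503 on its plates. SAG had a ratio of 5.21, or 3.598 on plate 1 only. The COR plates were above those of PF and the PF plates above those of GP. Efna5 made up 63.1% of the ephrin sum in PF, 75.5% in COR and 70.6% in GP, and Epha3 made up 51.2%, 32.7% and 50.8% of the receptor sum.

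The tissues were then compared pair by pair. A member was counted as different where it had at least 10 CPM in 1 of the tissues, a log2 ratio of CPM + 1 of at least 1 in size and the same sign in each of the 4 ratios between their plates. The share of all genes that met these criteria is given as the background. Between PF, which fuses in mice, and COR, which remains patent, Epha3 was the 1 member of 10 that met them, with a log2 ratio of 1.502 and plate ratios of 1.35 to 4.99. Over all genes 11.8% met them. The median log2 ratio was 0.64 over the 10 members and 0.03 over all genes tested. The COR plates differed from each other by more than this, with a log2 ratio of plate 1 to plate 2 of -3.58 for Epha3. Ephb3 had a log2 ratio of 1.31 with plate ratios of -0.71 to 1.57, and Ephb2 one of 0.94 with plate ratios of 0.82 to 1.90.

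Between PF and GP, 3 of 9 members with a sufficient level met the criteria, against 16.4% of all genes, and the median log2 ratio was 0.65 over those 9 and 0.10 over all genes. Ephb2 was higher in PF by a log2 ratio of 1.59, with plate ratios of 1.35 to 3.28. Efna2 was higher in PF by 1.31, with plate ratios of 0.63 to 1.54. Epha4 was lower in PF, at -1.07, with plate ratios of -5.88 to -0.40, and the single PF cell named above weighs in that value. Between COR and GP, 1 of 8 members did so, against 13.4% of all genes, and this was again Epha3, lower in COR at -1.70 with plate ratios of -5.56 to -1.46. Efna5 was higher in COR than in GP in all 4 plate ratios, from 0.52 to 0.93, but its log2 ratio of 0.79 was under the limit. Ephb4 had a log2 ratio of COR to GP of -0.90, with plate ratios of -1.64 to -0.29. The median log2 ratio was 0.13 over the 8 members and 0.07 over all genes. Cartilage markers also differed in this pair, with 5 of 6 genes of the chondrocyte list (Sox9, Col2a1, Acan, Col9a1, Col9a3 and Matn3) higher in GP, and their part in the Epha3 values was not tested. The comparisons share their samples, and the COR values of Epha3 enter both PF to COR and COR to GP.

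More members were counted in the pairs with SAG, and most of these counts rested on plate 2. Between PF and SAG, 4 of 9 members met the criteria, against 30.1% of all genes. Efna2, Efna4, Efna5 and Epha3 were higher in PF, and the log2 ratio of Epha3 was 2.75. With SAG plate 1 only, 3 of 10 members did so, against 33.3% of all genes, and these were Efna2, Efna4 and Epha3, the last at 2.10. Between SAG and COR, 6 of 9 members met them, against 32.4% of all genes. Efnb1 at 3.02 and Ephb2 at 2.66 were higher in SAG, and Efna2, Efna5, Efnb2 and Epha4 were lower. With plate 1 only, 1 of 8 members did so, against 31.9% of all genes, and this was Epha4 at -2.18. Between SAG and GP, 6 of 8 members met them, against 31.6% of all genes. Efnb1 at 3.11 and Ephb2 at 3.31 were higher in SAG, and Efna2, Epha3, Epha4 and Ephb4 were lower. With plate 1 only, 2 of 8 members did so, against 34% of all genes, and these were Epha3 at -2.30 and Epha4 at -2.98. Neither Efnb1 nor Ephb2 was counted in any pair without SAG plate 2 except Ephb2 between PF and GP. The shares of members counted with plate 1 only were near or below those of all genes. The median log2 ratio of PF to SAG was 1.68 over the tested members and 0.29 over all genes. For SAG against COR the medians were -1.24 and -0.29, and for SAG against GP -1.24 and -0.23. With plate 1 only the 3 medians of the members were 0.68, -0.49 and -0.04. SAG also stood apart in cartilage markers. The summed level of the chondrocyte list was 17156 and 11716 CPM on the SAG plates, 325 and 4206 on the GP plates, 99.7 and 278 on the PF plates, and 65.8 and 169 on the COR plates, and all 6 of its genes were higher in SAG than in PF and in COR. The osteoblast list was at 61495 and 14689 CPM on the SAG plates and 50481 to 185160 on the others. Single cells weighed in these sums. 1 cell held 64% of the osteoblast reads of SAG plate 1. For the chondrocyte list 1 cell held 43.1% on SAG plate 1 and 1 cell 59.1% on GP plate 2. In cells with a read the median for the osteoblast list was 3914 and 4339 CPM on the SAG plates and 49287 to 106637 on the others. For the chondrocyte list it was 4935 and 5358 against 90.4 to 377. The part of cartilage RNA in the SAG values was not tested. Among thinned cells without SAG plate 2, the chondrocyte list was read in 29 of 33 cells with Epha4 and 133 of 200 without. For Epha3 it was read in 58 of 75 and 104 of 158, and for Efnb1 in 49 of 71 and 113 of 162. For Ephb2 the counts were 26 of 38 and 136 of 195. These counts pool the tissues, and the part of tissue make-up in them was not tested.

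**Figure D3:**
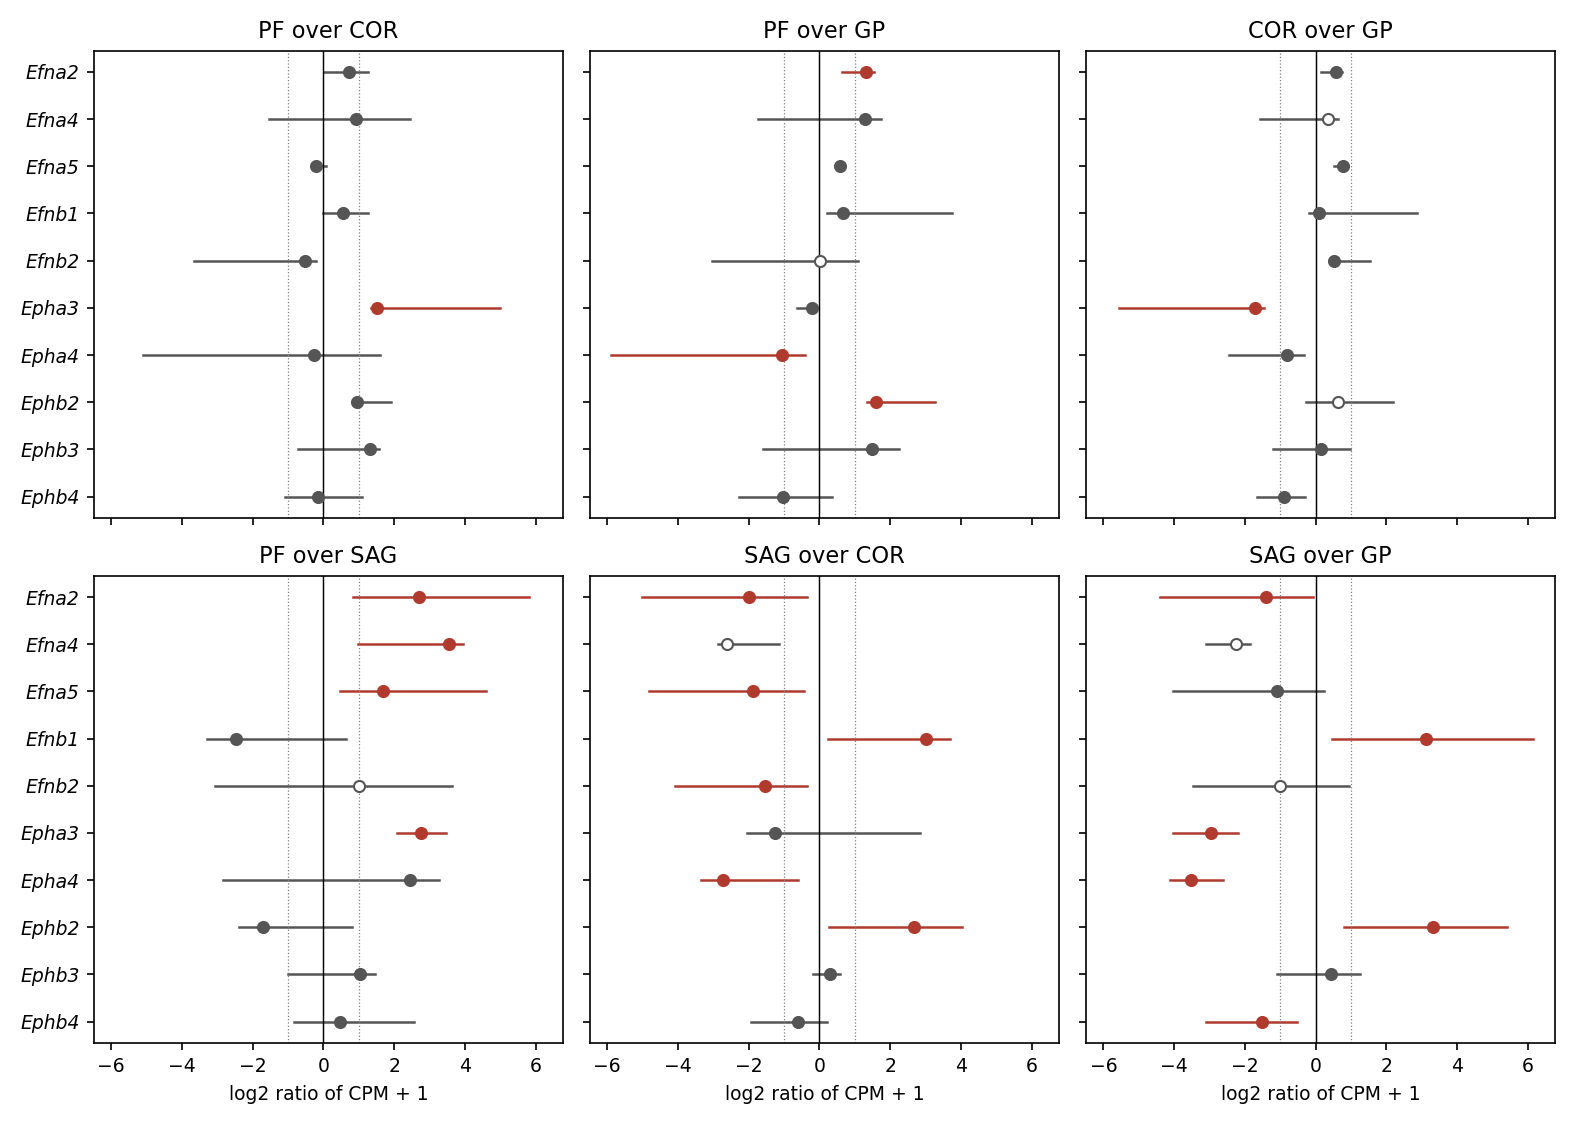
Log2 ratio of CPM + 1 of each member for the 6 tissue pairs, with a point for the tissues, a line from the lowest to the highest of the 4 plate ratios, red where all criteria were met and an open point where neither tissue reached 10 CPM. Dotted lines mark a ratio of 1 in size, and in the pairs without SAG only Epha3, Efna2, Epha4 and Ephb2 are red.

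Reads of a ligand and a receptor of one class occurred together in single cells of every tissue. An ephrin-A and an EphA member were both read in 24 PF, 7 SAG, 24 COR and 23 GP cells, and an ephrin-B and an EphB member in 20, 10, 20 and 15 cells. Of those SAG cells, 6 and 9 were among the 30 of plate 1. For ephrin-A and EphA the joint shares were 27.6% in PF, 32.4% in COR and 29.5% in GP, against 26.95%, 30.7% and 24.9% if read independently. For ephrin-B and EphB they were 22.99%, 27.03% and 19.2%, against 19.6%, 24.9% and 19.5%. For Efna5 and Epha3 they were 20.7%, 24.3% and 19.2%, against 20.6%, 21.9% and 16.7%. On SAG plate 1 the shares were 20%, 30% and 16.7%, against 14%, 20% and 10%. Of the 15 GP cells with Epha4, 13 also had Efna5, which was read in 44.9% of GP cells. In COR 12 of 16 cells with Epha4 had Efna5, which was read there in 77% of cells. Of the 14 COR cells with Efnb2, 2 also had Ephb4, against 18 of the 60 COR cells without Efnb2. In PF, Ephb4 was read in 62.5% of cells with Efnb2 and 11.4% without. The shares were 45.5% and 40.3% in GP, and 66.7% and 20.8% on SAG plate 1. They rest on 8 PF, 11 GP and 6 SAG cells with Efnb2. Cells with an ephrin-A and an EphA member were deeper than the rest in each tissue, in GP with a median of 456926 reads against 242249. At least 1 ephrin was read in 90.5% of COR, 79.3% of PF, 64.1% of GP and 51.2% of SAG cells, and at least 1 receptor in 63.5%, 64.4%, 65.4% and 29.1%. On SAG plate 1 alone the shares were 66.7% for ephrins, above that of GP, and 53.3% for receptors. A median cell had reads of 3 members in COR, 2 in PF, 2 in GP and 1 in SAG, or 2 on SAG plate 1.

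**Figure D4:**
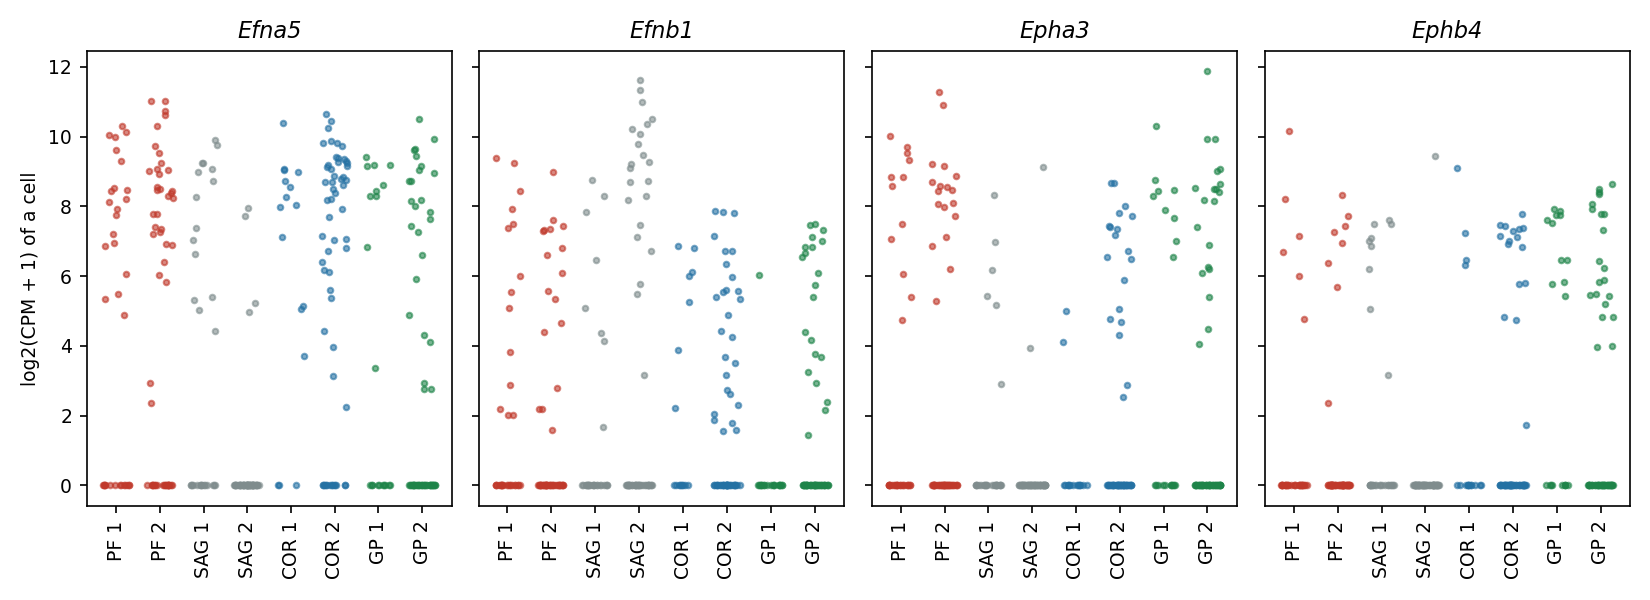
Level of Efna5, Efnb1, Epha3 and Ephb4 in every cell, as log2(CPM + 1), by tissue and plate, with cells without a read at 0. Efna5 points are sparse on SAG plate 2, Efnb1 points on that plate reach the highest values of the gene, and Epha3 points are few on COR plate 1 and SAG plate 2.

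Cells with Epha3 more often had reads of the tenocyte list, which held Scx, Tnmd and Mkx, genes of tendon and ligament cells. This was compared after thinning, within tissues. In PF the list was read in 16 of 23 cells with Epha3 (69.6%) and 19 of 47 without (40.4%). In COR it was read in 11 of 19 (57.9%) and 16 of 52 (30.8%), and in GP in 25 of 27 (92.6%) and 22 of 40 (55%). In SAG plate 1 it was read in 5 of 6 and 5 of 19 cells. The direction was the same in all 4 tissues, and over them, with SAG plate 2 left out, the shares were 76% and 39.2%. Most of it came from Tnmd, which was read in 45 of 75 cells with Epha3 and 44 of 158 without. Scx was under 10 CPM in PF, and was read in 0 of 23 PF cells with Epha3. The tenocyte list itself was at 2228 CPM in GP, 388 in PF, 122 in COR and 77.8 CPM in SAG, the order of Epha3, with 111 CPM on SAG plate 1. Its part in the Epha3 differences between tissues was not tested.

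**Figure D5:**
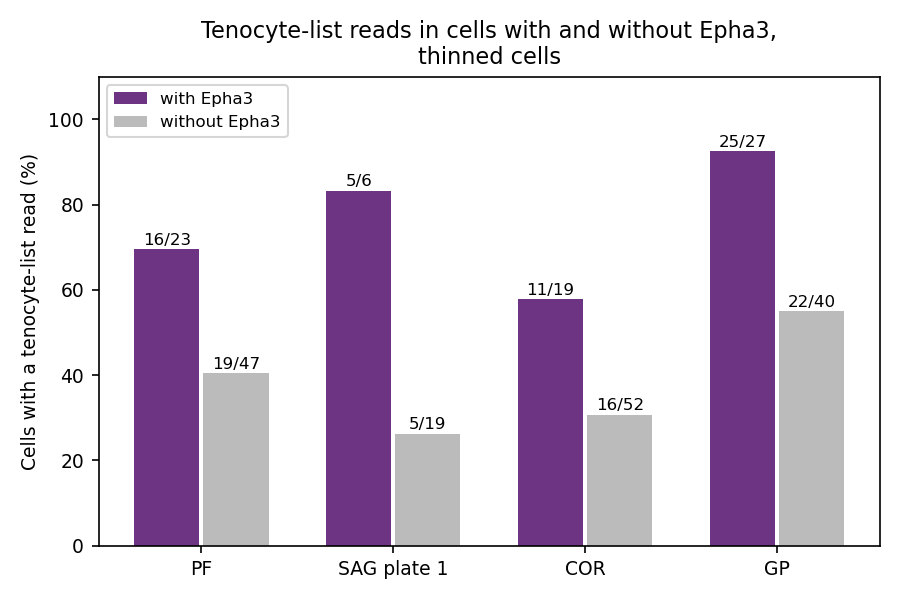
Share of cells with a read of Scx, Tnmd or Mkx, in percent, among thinned cells with (purple) and without (grey) an Epha3 read, by tissue, with the counts above the bars. The purple bar is higher in each tissue, from 57.9% against 30.8% in COR to 92.6% against 55% in GP.

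For the other members the 2 shares lay closer together. At the same depth and without SAG plate 2, the tenocyte list was read in 62.1% of cells with Ephb4 and 46.7% without. It was read in 66.7% and 48.5% for Epha4, in 54.9% and 44.9% for Efna5, and in 26 of 51 and 93 of 182 cells for Efna2. Unlike the counts by tissue for Epha3, these shares pool the tissues. GP, where the list was highest, held 29 of the 66 cells with Ephb4 and 15 of those with Epha4. The part of tissue make-up in these shares was not tested. The endothelial list was read in 19 of the 325 cells, 9 of them in COR, and its level was 1.72 to 17.3 CPM by tissue, with 16.7 in SAG and 3.20 on SAG plate 1. Among thinned cells without SAG plate 2 it was read in 8 of 66 cells with Ephb4 and 8 of 167 without, and in 4 of 32 cells with Efnb2 and 12 of 201 without. These counts too pool the tissues, and the part of endothelial RNA in the Ephb4 and Efnb2 levels was not tested.

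Msx2, a transcription factor of the osteogenic front and a partner of Twist1 in the coronal boundary, was set against the members in thinned cells. Among cells with and without Ephb3 it was read in 7 of 17 and 8 of 53 PF cells, 5 of 13 and 12 of 58 COR cells, 5 of 7 and 3 of 18 cells of SAG plate 1, and 1 of 11 and 2 of 56 GP cells. For Epha4, the member studied with Twist1 and Msx2 at that boundary, the COR counts were 5 of 14 against 12 of 57 for Msx2 and 4 of 14 against 24 of 57 for Twist1. All 10 members were compared with Msx2, and only Ephb3 and Epha4 are given here. The counts are small for both receptors, and the differences were not tested.

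The coronal boundary list of Twist1, Msx2, En1, Tcf12, Jag1 and Notch2 was compared in the same pairs. Between PF and COR 1 of 5 with a sufficient level met the criteria, against 11.8% of all genes. This was Jag1, a Notch ligand, higher in PF at 92.8 against 26.1 CPM. The authors report the other direction for Jag1. In their bulk RNA-seq of cells sorted alike at postnatal day 3, Jag1 is among the genes lowered only in PF, with RT-PCR beside it. The cause of this difference was not tested. Of 5 genes with a sufficient level in COR or GP, Msx2 and Jag1 met the criteria between them, against 13.4% of all genes. Msx2 was higher in COR, at 37.6 against 4.88 CPM, and Jag1 was lower. Jag1 was also the gene whose plate levels were most like those of Epha3 among 11612 genes, with a Pearson r of 0.98 over the 8 plates. Over the 7 without SAG plate 2 its r was 0.97 and it was no longer among the first 3, which were Itga1 (r = 0.99), Zfp867 (r = 0.99) and Col4a2 (r = 0.98). Within PF cells the 2 genes were not closely tied, with Jag1 in 10 of 23 thinned cells with Epha3 and 16 of 47 without, and in COR the shares ran the other way, at 4 of 19 and 18 of 52.

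For the remaining members read in at least 40 cells, the most like genes over the 8 plates were Glrx5 for Efna5 (r = 0.997), Aga for Efna2 (r = 0.99), Polr3e for Efnb1 (r = 0.98), Bcl9 for Ephb2 (r = 0.996), Epas1 for Ephb3 (r = 0.95) and Tmem45a for Ephb4 (r = 0.98). Without SAG plate 2 these were 0.96 for Efna5, 0.93 for Efna2, 0.96 for Efnb1, 0.99 for Ephb2, 0.97 for Ephb3 and 0.97 for Ephb4. Bcl9, Epas1 and Tmem45a then kept the first place, whereas Ildr2 (r = 0.96) came first for Efna5, Flrt1 (r = 0.99) for Efna2 and Fastkd2 (r = 0.99) for Efnb1. The plates share their libraries and depth between genes, 8 points are few for so many genes, and the values are descriptions.

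Of the remaining 12 genes of the family, Epha6 and Epha10 had no read in 325 cells. Epha7, which like Epha3 binds ephrin-A5, was read in 16 of 87 PF cells and 3 of 78 GP cells, and its level was 92.1 CPM for PF, followed by SAG at 30.2, or 65.5 on SAG plate 1, COR at 12.6 and GP at 2.77. Its log2 ratio of PF to COR was 2.77, with plate ratios of 2.48 to 5.07, and that of PF to GP was 4.62. Epha5 was higher in GP, at 33.5 CPM, than in PF at 8.88, SAG at 4.76 (1.02 on plate 1) and COR at 5.37. Ephb6, a receptor without kinase activity, had 889 reads in PF and 0 in SAG, where 0 of 86 cells on both plates allows a share of up to 3.49%. Adam10, which encodes a protease that sheds ephrins, was among the 28 other signalling genes listed. Of these, 21 had a sufficient level in PF or COR and 0 met the criteria between them, against 11.8% of all genes. Between COR and GP 3 of 24 did so, against 13.4% of all genes. Fyn, a Src family kinase, and Pak1 were higher in COR and Pick1 was higher in GP.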

How the data were processed

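The authors deposited raw read counts per gene and cell in 8 tables of 360 cells, 1 table for each plate of a tissue. The submitters' processing notes name STAR 2.5.3a, HTSeq, Seurat 2.3.0, R 3.4.4 and build mm9, and the annotation, counting mode and strand setting are not given in the sources used here. Reads were amplified by PCR and carry no molecular identifier. Whether genes that overlap or share sequence split reads is not known.

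Wells under 500 genes or under 10000 reads were removed, and 325 cells remained. Cells were sorted singly into wells and no doublet caller was run. Levels were summed reads over totals without Rn45s, in CPM, with Python 3.11.15. Ratios were log2 of CPM + 1, which understates the change of weakly read genes. Exon lengths came from GENCODE vM1 on mm9. Shares have Clopper-Pearson and levels Poisson intervals. Shares were also computed after random thinning to 100000 reads. For a count of 0 the limit is that of 3 counts. The criteria were tried on simulated PF and COR cells drawn without differences between plates. The trial therefore cannot show how the criteria fare where plates differ.

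Groups came from the titles and source names. For 1 SAG cell the description named a PF plate. The members, marker lists and comparisons were chosen with earlier results of these data known, and the marker shares within thinned cells of each tissue, the ratio of ephrins to receptors and the plate correlations without SAG plate 2 after values were seen. All 10 members are named, and for likeness the gene of highest r of those read in at least 40 cells, while other lists are given by counts and by the genes that met the criteria. TMM factors came from edgeR 4.0.16 in R 4.3.3.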

Additional observations from a re-analysis of the deposited data

How the results depend on the processing

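The numbers of members that met the criteria were small and moved with the settings. With a stricter cell filter of 1500 genes and 50000 reads, which left 237 cells and 0 of SAG plate 2, 3 members met them between PF and COR, 2 between PF and SAG, 1 between SAG and COR and 2 between SAG and GP, against 11.6%, 33.1%, 32.2% and 34.7% of all genes. With SAG plate 2 left out, 1 of 8 members met them between SAG and COR, against 31.9% of all genes. Between SAG and GP 2 of 8 did so, against 34%. With the mean of each cell's CPM, or with the cell of most reads left out, 2 members met them between PF and COR. With the first setting 16% of all genes did, and for the second no such share is given. The highest counts for PF and COR, PF and SAG, and COR and GP came without PF plate 2, PF plate 1 and GP plate 2, and that for PF and GP without PF plate 1. Leaving out 1 plate at a time, which leaves 2 plate ratios in place of 4, gave 1 to 6 members between PF and COR, 3 to 8 between PF and SAG, 1 to 7 between SAG and COR, 3 to 5 between PF and GP, 2 to 7 between SAG and GP and 1 to 5 between COR and GP. The criteria are then easier to meet, and in the same order of pairs 18.5% to 32.2%, 33.3% to 75.1%, 31.9% to 76.4%, 23.3% to 36.2%, 34% to 76.4% and 19.9% to 33.7% of all genes met them. Counting Rn45s, TMM factors, no cell filter, a pseudocount of 5 CPM, no minimum level and leaving out the cell with conflicting labels kept each count within 1.5 times. Counting Rn45s moved the median log2 ratio of all genes to 2.20 with PF over SAG, -2.24 with SAG over COR and -2.09 with SAG over GP. Epha3 met the criteria between PF and COR under all 13 settings, with a log2 ratio of 1.32 to 4.94, and between COR and GP under all 13, at -5.14 to -1.56. The values of 4.94 and -5.14 came with COR plate 2 left out. Ephb2 met them between PF and GP under all 13, Efna2 under 11 and Epha4 under 8. The cause of these changes was not tested. The number of cells limits the shares, since 0 of 16 cells, as many as COR plate 1 held, would allow a share of up to 18.8%. No paired analysis was possible because the plate numbers name separate plates of each tissue and the values come from no test.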
